A study of Homo sapiens with 12 samples.

Results

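A set of 10 genes of the immediate-early and MAPK feedback programme was read in CAOV3 cells, a human ovarian carcinoma line, and is described here across 4 treatments. They were chosen by symbol, as 5 immediate-early transcription factor genes (FOS, FOSL1, JUN, JUNB and EGR1) and 5 feedback genes (DUSP4, DUSP5, DUSP6, SPRY2 and SPRY4). All 10 were found among the 19677 genes listed and all 10 were among the 12470 genes that passed the filter on low counts. The question of the study was which transcripts change in ovarian cancer cells under ascites and under the fibrate drug bezafibrate. Bulk RNA-seq gave 12 libraries in 4 groups of 3. Control cells were labelled as given DMSO, the ascites group had 10% ascites with DMSO, the third group had 200 uM bezafibrate, and the last had 10% ascites with 200 uM bezafibrate. All groups were labelled as wild type and grew in DMEM with 10% fetal bovine serum, so every culture, controls included, had serum growth factors. Ascites (150 uL) went into 1.5 mL of medium, and treatment lasted 16 h; no time is given for the control libraries. DMSO is named in the labels for both groups without the drug and for neither group with it, so an effect of the drug and an effect of its solvent cannot be told apart. The labels do not say whether replicates were separate cultures or whether the ascites had 1 donor, so p-values measure the spread between these libraries only.

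Ascites is the fluid that gathers in the abdomen in ovarian cancer, and bezafibrate is a lipid-lowering drug that activates PPAR nuclear receptors. Growth factors bind receptor tyrosine kinases and activate the RAS, RAF, MEK and ERK cascade, and ERK and the related JNK and p38 kinases then phosphorylate transcription factors in the nucleus. Immediate-early genes are switched on by these kinases without new protein synthesis, usually in a short pulse. FOS and JUN proteins pair to form AP-1, which binds DNA. DUSP proteins remove the activating phosphates from MAP kinases and SPRY proteins damp the cascade near its receptors, so both form the negative feedback arm. Messenger RNA of these genes reports on transcription and stability and not on kinase activity, which was not measured.

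Total counts ranged from 11831093 to 18762759 per library. On the first principal component, with 37% of the variance, bezafibrate-treated and untreated libraries formed 2 sets of 6. Combination replicate 3 stood apart on the second component, which held 9.88%, with a score of -22.4 against -4.37 to 9.84 for the other 11 libraries. Results that use the combination group are therefore given with and without it where they moved. The keratin genes KRT7, KRT8, KRT18 and KRT19 and the epithelial adhesion genes EPCAM and CDH1 were expressed in all libraries, at 15.3 CPM or more. CPM are counts of a gene per 1e6 of the scaled library size. Other markers of serous ovarian cancer were at or near 0: PAX8 reached at most 1.27 CPM, MSLN 0.808, WT1 0.294, MUC16 0.202 and WFDC2 0.0781, and SOX17 had no count. Of 26 markers of the other cells that ascites can hold, 9 had no count in any library, among them PTPRC of all leukocytes and PPBP of platelets. Their summed level was 14.9 to 17.3 CPM in control libraries and 14.8 to 17.3 with ascites, 11.9 to 13.3 with bezafibrate and 11.99 to 15.5 with both.

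Bezafibrate changed 6 of the 10 genes when both drug groups were set against both groups without it, and ascites changed none that passed the test. JUN rose most, 1.80-fold (95% interval 1.69 to 1.92), and JUNB rose 1.24-fold (1.17 to 1.32). DUSP4 fell to 0.806 of its level without the drug (0.776 to 0.836), SPRY2 to 0.822 (0.783 to 0.864) and SPRY4 to 0.908 (0.868 to 0.951). DUSP6 rose 1.05-fold (1.01 to 1.09) with libraries that overlapped. FOS, FOSL1, EGR1 and DUSP5 were not called. A gene was called where edgeR's quasi-likelihood test gave a Benjamini-Hochberg adjusted p under 0.05 over all 12470 genes. In that comparison 28.3% of all genes were called, 15% higher and 13.2% lower. The median log2 fold change was -0.09 over the 10 genes and -0.0047 over all genes tested.

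**Figure D1:**
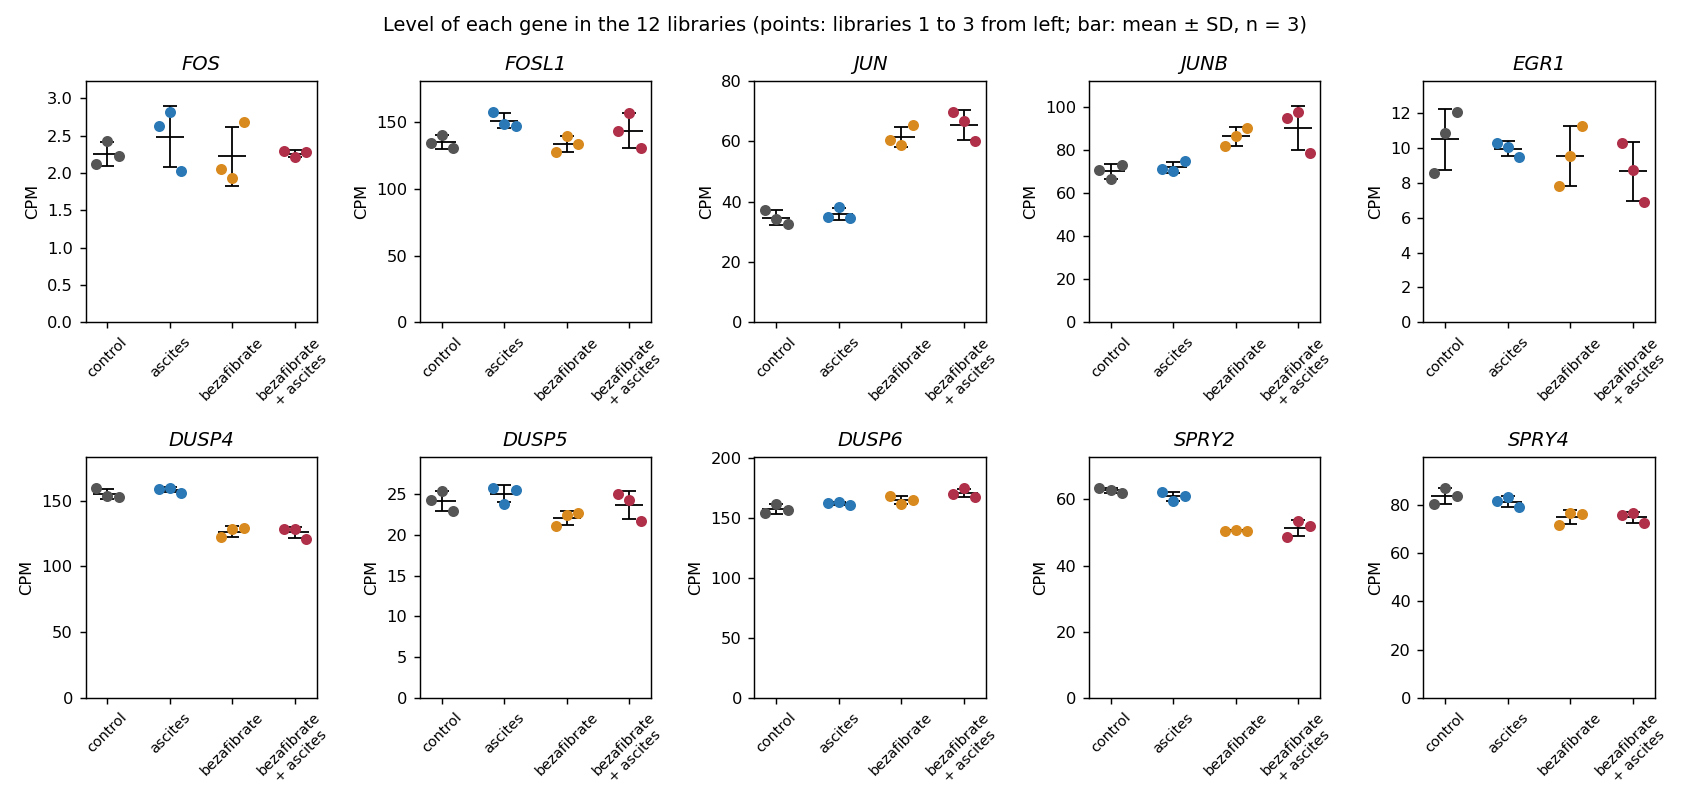
Level of each of the 10 genes in CPM (y axis, from 0) in the control, ascites, bezafibrate and combination groups (x axis). Points are the 3 libraries of a group and bars the mean and SD; JUN sits at 58.9 CPM or more in the 6 drug libraries and at 38.3 or less in the other 6.

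JUN encodes the founding partner of AP-1, a target of JNK that also activates its own gene. It is a single-exon gene at chr1:58780791-58784047 on the minus strand (RefSeq, GRCh38.p14, as for the coordinates below). Its level was 37.4, 34.2 and 32.5 CPM in control replicates 1 to 3 and 34.9, 38.3 and 34.5 CPM with ascites. With bezafibrate it was 60.6, 58.9 and 65.3 CPM, and with both treatments 69.6, 66.7 and 60.1 CPM. Every drug library stood above every library without the drug. The log2 fold change was 0.82 (SE 0.062) against control, with an edgeR adjusted p of 2.54e-13, and 0.88 (SE 0.062) in the presence of ascites, with an adjusted p of 5.63e-14. The difference between these effects was 0.05 (95% interval -0.13 to 0.23), which did not pass the test. JUN was the only one of the 10 genes called when the change had to exceed 1.2-fold, and it was so in each drug comparison.

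JUNB, which pairs with the same FOS proteins and can oppose JUN at some genes, lies at chr19:12791486-12793315 on the plus strand and also has a single exon. Control libraries held 70.8, 66.3 and 73.0 CPM and ascites libraries 71.1, 69.9 and 74.6 CPM. The level was 81.7, 86.4 and 90.1 CPM with bezafibrate and 94.5, 97.2 and 78.4 CPM with both. All 6 drug libraries were above the other 6, and combination replicate 3 was the lowest of them. The log2 fold change was 0.30 (SE 0.060, edgeR adjusted p 0.000531) against control and 0.33 (SE 0.061, adjusted p 0.000190) in ascites. Without combination replicate 3, JUNB changed by 0.41 in ascites. JUNB shares 259 exon bases with HOOK2, a gene on the opposite strand, and strand use in counting is not given in the sources used here. HOOK2 stood at 14.4 to 23.4 CPM and was not called, with an average log2 change of 0.01 under the drug. With the counts of both genes summed, the call was lost against control (log2 fold change 0.23, adjusted p 0.0563) and held in ascites (0.28, adjusted p 0.0209) and on average (0.26, adjusted p 0.00266).

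FOS, FOSL1 and EGR1 were not called in any drug comparison. FOS, the classic pulse gene of serum stimulation at chr14:75278828-75282230, was near the lower limit of measurement, with 26 to 39 counts per library. Its level was 2.11, 2.42 and 2.22 CPM in control, 2.63, 2.81 and 2.02 with ascites, 2.05, 1.94 and 2.68 with bezafibrate and 2.29, 2.21 and 2.28 with both. The groups overlapped, and the average drug effect was 0.945-fold with a 95% interval of 0.755 to 1.18, so a change as large as that of JUN lay outside the interval. EGR1, a zinc finger factor at chr5:138465479-138469303, was at 8.59, 10.9 and 12.1 CPM in control and 10.3, 10.1 and 9.49 with ascites. With bezafibrate it was at 7.84, 9.58 and 11.3 CPM and with both at 10.3, 8.75 and 6.92, again with overlap. Its average drug effect was 0.898-fold (0.780 to 1.03, edgeR adjusted p 0.269).

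FOSL1, which encodes the FOS-family protein FRA1, lies at chr11:65892049-65900545. It was at 135, 141 and 131 CPM in control and 157, 149 and 147 CPM with ascites. With bezafibrate it was at 128, 140 and 133 CPM, and with both at 143, 157 and 131 CPM. The 3 ascites libraries were above the 3 control libraries, whereas the combination and bezafibrate groups overlapped. The log2 change with ascites was 0.16 (SE 0.049, unadjusted p 0.00340), which did not pass the adjustment over all genes (edgeR adjusted p 0.535). FOSL1 was called with ascites in 2 of 7 alternative fits, with no filter on low counts (adjusted p 0.0231) and with only the compared groups in the fit (0.0317). Averaged over both drug settings the ascites change was 0.13 (adjusted p 0.147), and without combination replicate 3 it was 0.16 (adjusted p 0.000370).

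DUSP4, DUSP5 and DUSP6 encode phosphatases that act on MAP kinases. DUSP4 and DUSP5 proteins sit in the nucleus, and DUSP6 is cytoplasmic and selective for ERK. DUSP4 was at 159, 153 and 153 CPM in control and 159, 159 and 156 CPM with ascites. It was at 122, 128 and 129 CPM with bezafibrate and 128, 128 and 121 CPM with both, so all 6 drug libraries were below the other 6. Its log2 fold change was -0.29 (SE 0.037, edgeR adjusted p 8.39e-08) against control and -0.33 (SE 0.038, adjusted p 1.08e-08) in ascites. DUSP4 lies on the minus strand of chromosome 8 (29333064 to 29350684).

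DUSP6, at chr12:89347235-89352501, had small positive changes with the drug. It was at 154, 161 and 156 CPM in control and 163, 163 and 161 CPM with ascites, against 168, 161 and 165 CPM with bezafibrate and 170, 175 and 168 CPM with both. The combination libraries were all above the control libraries, and the log2 change between those groups was 0.12 (SE 0.035, edgeR adjusted p 0.0162). Bezafibrate alone gave 0.07 (adjusted p 0.208), and in ascites it gave 0.07 (adjusted p 0.156). The call of the combination was lost without control replicate 1 (adjusted p 0.0831), control replicate 3 (0.0603) or combination replicate 2 (0.0721), and with only both groups in the fit (0.0560). The average drug call was lost with upper-quartile scaling, with no filter on low counts, with DESeq2 and in 5 of the 12 fits that left out 1 library. An antisense gene outside the count tables shares 1875 exon bases with DUSP6, so its counts carry the same doubt about strand. DUSP5, at chr10:110497907-110511533, was at 24.3, 25.4 and 23.0 CPM in control and 25.8, 23.9 and 25.6 with ascites. It was at 21.1, 22.5 and 22.7 CPM with bezafibrate and 25.05, 24.3 and 21.8 with both. The bezafibrate libraries alone were below all control libraries, with a log2 change of -0.14 (SE 0.072) that did not pass the test (edgeR adjusted p 0.225).

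SPRY2 and SPRY4 encode Sprouty proteins, membrane-linked inhibitors of the signal between receptor and RAF. SPRY2, at chr13:80335976-80341126, was at 63.4, 62.8 and 62.0 CPM in control and 62.4, 59.6 and 61.1 CPM with ascites. Bezafibrate libraries held 50.6, 50.8 and 50.5 CPM and combination libraries 48.7, 53.3 and 52.0 CPM, and none of them reached the lowest library without the drug. Its log2 fold change was -0.31 (SE 0.049, edgeR adjusted p 5.08e-06) against control and -0.25 (SE 0.050, adjusted p 0.000183) in ascites. SPRY4, at chr5:142310430-142325021, was at 80.2, 86.9 and 83.8 CPM in control and 81.5, 83.4 and 79.0 CPM with ascites. It was at 71.5, 76.7 and 76.3 CPM with bezafibrate and 75.8, 76.4 and 72.4 CPM with both, below all libraries without the drug. Its log2 change was -0.16 (SE 0.046, adjusted p 0.0100) against control and -0.12 (SE 0.047) in ascites, which did not pass (adjusted p 0.0815). The SPRY4 call against control was lost without control replicate 2 (adjusted p 0.0909) or bezafibrate replicate 1 (0.0903). In bulk RNA, fewer cells that express a gene and less of its RNA per cell cannot be told apart, here and for every gene described.

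**Figure D2:**
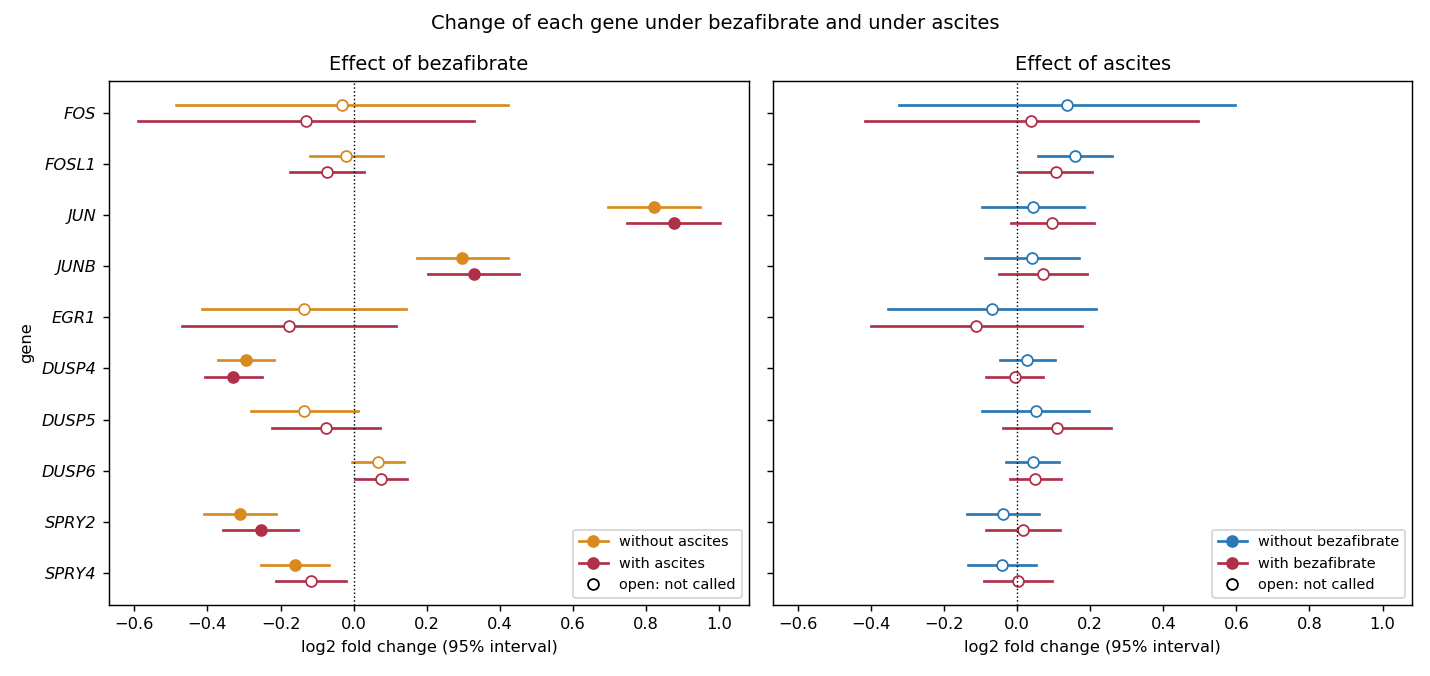
Log2 fold change with its 95% interval (x axis) for each gene (y axis). The left panel gives bezafibrate without and with ascites and the right panel ascites without and with bezafibrate. Filled points were called and open points were not; JUN stands apart at 0.82 and 0.88 on the left, and no point on the right is filled.

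Bezafibrate against control called 5 of the 10 genes, with JUN and JUNB higher and DUSP4, SPRY2 and SPRY4 lower. Over all genes 17.6% were called, 10.1% higher and 7.55% lower. With ascites present in both groups 4 were called, the same genes except SPRY4, beside 17.8% of all genes (10.5% higher, 7.29% lower). The combination against control called 6, adding DUSP6, beside 18.2% of all genes (10.3% higher, 7.96% lower). These comparisons share libraries and are not independent of each other.

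Ascites against control called 0 of the 10 genes by edgeR and 0 by DESeq2, and 1 (FOSL1) had an unadjusted p under 0.05. Ascites called 0.0882% of all genes, 0% higher and 0.0882% lower, so few genes of any kind passed. In the presence of bezafibrate 0 were called by either tool, with 1 at an unadjusted p under 0.05 (FOSL1), beside 0.128% of all genes (0.0401% higher, 0.0882% lower). Averaged over both settings 0 were called by either tool, with 1 (again FOSL1) under 0.05 unadjusted, beside 0.281% of all genes (0.0481% higher, 0.233% lower). No gene of the table was called by edgeR for a difference between the drug effect with and without ascites (0%), 445 had an unadjusted p under 0.05, and DESeq2 called 1. None of the 10 was under 0.05 unadjusted. The intervals of that difference still allowed changes of 0.597-fold to 1.46-fold between settings for FOS, and 0.937-fold to 1.08-fold for DUSP6.

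**Figure D3:**
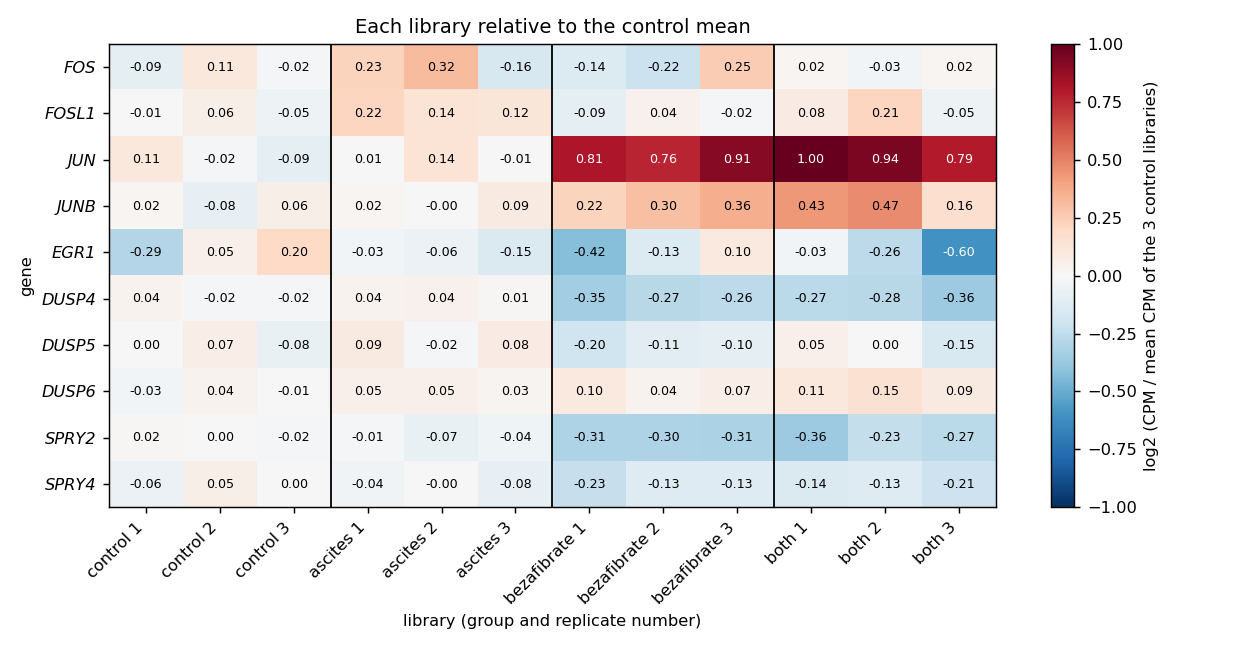
Log2 of CPM over the mean of the 3 control libraries (colour and printed value) for each gene (rows) in each library (columns). JUN lies between 0.76 and 1.00 in the 6 drug libraries, and EGR1 reaches -0.60 in combination replicate 3.

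Per kilobase of exon, which allows levels of different genes to be compared, FOSL1 was highest in control cells at 71.8 ± 2.71 CPM per kilobase (SD, n = 3). JUNB followed at 38.5 ± 1.88, DUSP6 at 33.9 ± 0.820, DUSP4 at 21.4 ± 0.509, SPRY2 at 20.7 ± 0.227 and SPRY4 at 12.7 ± 0.508. Lower still were JUN at 9.80 ± 0.693 and DUSP5 at 9.27 ± 0.462, whose libraries overlapped. EGR1 was at 3.35 ± 0.561 and FOS at 0.696 ± 0.0488. Neighbours in this order other than JUN and DUSP5 did not overlap between libraries, and the order was the same when the longest transcript set the length. With bezafibrate JUN stood at 17.4 ± 0.938 CPM per kilobase and overlapped DUSP4 at 17.4 ± 0.535 and SPRY2 at 16.7 ± 0.0506. It was rank 5 of the 10 there by exon length and rank 6 by longest transcript, against rank 7 in control. By longest transcript its bezafibrate mean was 17.4, against 18.7 for SPRY2 and 22.8 for DUSP4. The match in level with these genes therefore depends on the length used. Exon lengths are from GENCODE v29 and the authors' annotation is not given in the sources used here.

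**Figure D4:**
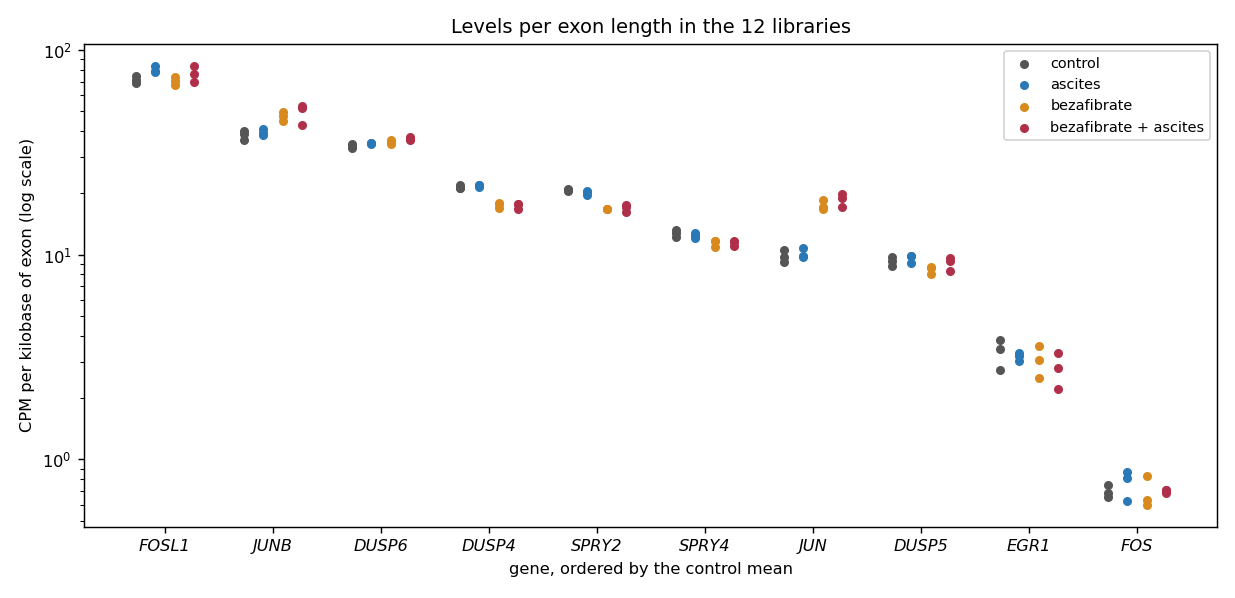
CPM per kilobase of exon on a log axis (y) for each gene, ordered by its control mean (x), with 1 point per library and a colour per group. By this exon length FOSL1 is highest, between 67.6 and 83.5, FOS is below 1 throughout, and the drug libraries of JUN reach the level of DUSP4 and SPRY2. By longest transcript, which is not drawn, the JUN mean is below both in each drug group and the FOS means are just above 1.

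The make-up of the AP-1 families was described from the same levels per kilobase. JUN was 11.5 ± 0.849% (SD, n = 3) of the summed JUN, JUNB and JUND level in control and 11.9 ± 0.800% with ascites. It was 17.7 ± 0.493% with bezafibrate and 18.9 ± 1.02% with both, and the groups with and without the drug did not overlap. JUND, the family member that is usually expressed at rest, was 43.4 ± 1.97% in control and 34.4 ± 0.846% with bezafibrate, while its own level was not called (average log2 change -0.18, edgeR adjusted p 0.107). On the FOS side FOSL1 was 84.0 to 87.2% of the family in the 4 group means, and FOS was under 1% in each. The small FOS share depends on the length used. Its control mean was 0.696 CPM per kilobase by exon length and 1.04 by longest transcript. Since these shares rest on the JUN values given above, they add no separate evidence of its change.

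The promoter windows show which known types of element lie beside the starts of these genes. Of the 10 genes, 7 had an entry in the RefSeq promoter table (GRCh38.p14), and the 250 bases before each start were searched on both strands. JUN and FOS are shown as 30-base sites because their windows overlap exons of other annotated transcripts. The windows of DUSP6 (250 of 250 bases) and SPRY4 (170 of 250) also overlap such exons, and were searched but are not shown. Capitals mark the matches: in JUN an 8-base CRE-type element (TGACNTCA, bases -67 to -60 from the start), the kind bound by JUN and ATF2 dimers, and in FOS a CRE core (TGACG, bases -64 to -60), which CREB can bind. They are at chr1:58784096-58784125 (minus strand) and chr14:75278752-75278781 (plus strand), and are written 5′ to 3′ on the gene's strand.
JUN: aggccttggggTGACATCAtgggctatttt
FOS: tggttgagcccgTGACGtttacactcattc

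JUNB and SPRY2 are shown as genes that changed in opposite directions with the drug, and EGR1 as one that was not called. The windows lie at chr19:12791236-12791485 (JUNB, plus strand), chr13:80341127-80341376 (SPRY2, first of 3 listed starts, minus strand) and chr5:138465229-138465478 (EGR1, plus strand). Capitals mark CRE cores (TGACG or its complement), EGR sites (GCGNGGGCG) and, in EGR1, the 2 CArG boxes that bind serum response factor.
JUNB: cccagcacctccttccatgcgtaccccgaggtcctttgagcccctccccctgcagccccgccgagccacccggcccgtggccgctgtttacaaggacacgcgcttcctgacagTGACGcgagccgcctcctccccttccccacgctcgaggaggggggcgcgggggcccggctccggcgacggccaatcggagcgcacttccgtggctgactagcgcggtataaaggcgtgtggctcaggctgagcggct
SPRY2: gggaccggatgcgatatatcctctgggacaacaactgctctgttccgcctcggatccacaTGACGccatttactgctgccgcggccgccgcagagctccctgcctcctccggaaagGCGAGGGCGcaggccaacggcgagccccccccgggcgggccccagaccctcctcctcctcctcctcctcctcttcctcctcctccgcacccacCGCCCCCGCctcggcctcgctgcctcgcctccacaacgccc
EGR1: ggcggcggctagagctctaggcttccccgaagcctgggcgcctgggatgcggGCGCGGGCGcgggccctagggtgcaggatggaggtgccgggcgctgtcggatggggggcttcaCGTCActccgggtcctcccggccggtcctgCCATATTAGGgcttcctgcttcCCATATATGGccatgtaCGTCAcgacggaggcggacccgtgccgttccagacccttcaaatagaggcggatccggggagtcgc

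Among 35116 windows of this length, 21.2% held a CRE core, 6.87% the 8-base CRE-type element, 8.41% an EGR site and 1.16% a CArG box. The 8-base element was found in JUN and the CArG boxes in EGR1, at bases -105 to -96 and -83 to -74. CRE cores, which 21.2% of all windows held, were found beside genes that rose (JUN, JUNB), fell (SPRY2, SPRY4) and were not called (FOS, EGR1). Among the 7 genes searched DUSP6 alone had no CRE core, and the difference from the share of all windows was not tested. EGR sites were found in SPRY2, SPRY4 and EGR1, and the DUSP6 window held none of these elements. AP-1 sites (TGANTCA, in 6.57% of all windows), ETS sites (3.42%) and PPAR DR1 elements (0.0171%) were also searched. None of them was found beside these genes. These are letter matches and not measured binding. Bases outside these windows were not searched, so a gene with no match, such as FOS for the CArG box, may hold the element elsewhere.

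Genes of the surrounding pathway were read as fixed lists, under the average effect of bezafibrate in which 28.3% of all genes were called. Among 9 growth factor ligands that passed the filter, 4 rose and 3 fell. The EGF receptor ligands AREG (1.52-fold), EREG (1.42-fold) and TGFA (1.41-fold) rose, and FGF2 (0.837-fold), IGF2 (0.841-fold) and PDGFB (0.704-fold, overlapping libraries) fell. All 10 growth factor receptors that passed the filter were called, 3 higher and 7 lower. FGFR1 rose 1.84-fold, INSR by 0.36 on the log2 scale and MET 1.07-fold. PDGFRA fell to 0.502 and FGFR4 to 0.778 of the level without the drug. The genes of the EGF receptor family that passed the filter were among the 7 that fell. In the RAS-ERK cascade 5 of 22 genes were called, all higher, up to 1.13-fold for the adaptor SHC1. The log2 medians were 0.08 over the ligands, -0.17 over the receptors and 0.01 over the cascade.

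Of 19 other immediate-early genes tested, 5 rose and none fell, with a median log2 change of -0.02. The Kruppel-like factor genes KLF4 (1.82-fold), KLF2 (1.57-fold) and KLF10 (1.48-fold) rose most. KLF4 was at 44.0, 37.5 and 41.2 CPM in control and 75.2, 75.7 and 78.7 CPM with bezafibrate. MYC and ATF3 were not called, with log2 changes of -0.04 and -0.03. Of 14 other feedback genes tested, 6 rose and 4 fell (median 0.04), so feedback genes moved both ways outside the 5 described above too. DUSP1, the phosphatase of p38 and JNK, rose 1.39-fold from 14.999, 15.8 and 17.8 CPM in control to 22.7, 20.9 and 24.2 CPM with bezafibrate. SPRED1, a Sprouty-related inhibitor, rose by 0.38 on the log2 scale, and SPRY1 fell to 0.707 of its level without the drug. The largest called fall was that of DUSP8, to 0.630 (edgeR adjusted p 0.00411), with overlapping libraries and group means of 1.35 to 2.75 CPM. DUSP7 fell to 0.885, also with overlap.

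Among 13 ERK output genes 5 rose and 3 fell (median 0.01). PLAUR (1.53-fold), which encodes the urokinase receptor, rose, and ETV1 (0.788-fold), CCND1 (0.913-fold) and HMGA2 (0.915-fold) fell. ETV4 and ETV5, common readouts of ERK output, were not called (log2 changes 0.01 and -0.06). Of 12 factors that act at immediate-early promoters 2 rose (ETS1, ETS2) and 2 fell (MRTFA, ERF), with a median of -0.0046, and SRF was not among them. Of 11 JNK and p38 kinase genes 3 rose and 3 fell (median 0.04), with MAP2K6 at 0.714-fold and MAPK14 at 1.11-fold. No gene of these 8 lists was called by edgeR for ascites against control, where 5 had an unadjusted p under 0.05. None was called for ascites in bezafibrate or for the average ascites effect either. More genes were under 0.05 unadjusted in those comparisons, among them 4 of the 9 ligands on average. Among the epithelial markers CDH1 rose 3.04-fold and KRT7 1.47-fold with the drug, and among markers of other ascites cells the collagen genes COL1A1 and COL3A1 fell; their part in the changes of the 10 genes was not tested.

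**Figure D5:**
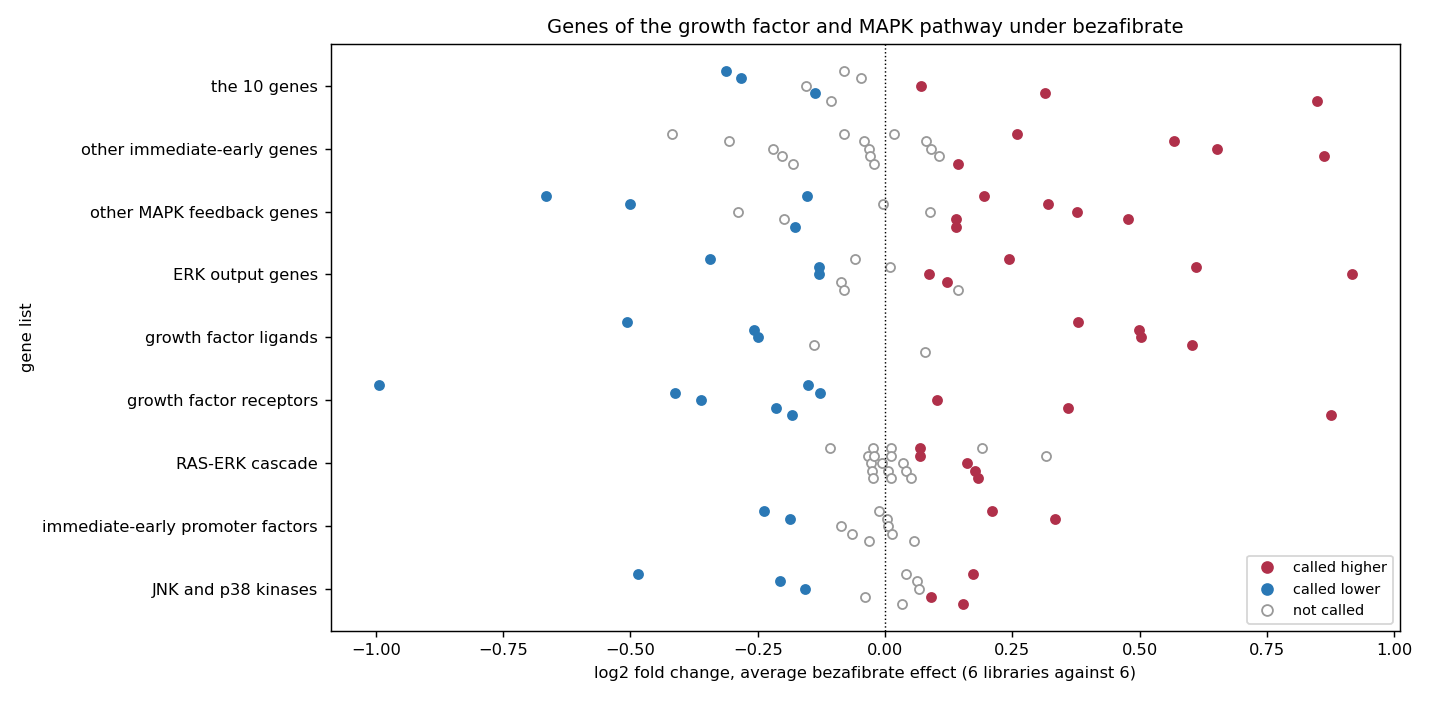
Average log2 fold change under bezafibrate, 6 libraries against 6 (x axis), for each tested gene of 9 lists (y axis). Red and blue points were called higher and lower and open points were not called; in the RAS-ERK cascade 17 of 22 points are open, and all 10 receptors are filled.

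Genes whose level followed each of the 10 most closely over the 12 libraries were named as a description, since the libraries fall into drug and no-drug sets that any drug-responsive gene follows. JUN was closest to ACAA1 (Pearson r 0.993), a peroxisomal thiolase gene of fatty acid oxidation, and to SEMA4B (0.991). JUNB was closest to GRB2 (0.976) and FOSL2 (0.969). DUSP4 was closest to RAMP1 (0.985), SPRY2 to B3GALT5 (0.983), SPRY4 to HMGB2 (0.947) and DUSP6 to RASEF (0.913). For the genes that were not called, the closest were CBR1 for FOSL1 (0.889), MDM4 for EGR1 (0.923), NDOR1 for DUSP5 (0.890) and DBNL for FOS (0.809). Within groups, where the treatment means were removed, r was 0.883 for JUN with ACAA1 and 0.712 for DUSP4 with RAMP1. Over the 2 closest genes of each of the 10 it ran from 0.565 (SPRY2 with BCL11A) to 0.917 (EGR1 with MDM4). The pairs were picked on these same libraries, so the within-group values are no separate evidence of a link.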

How the data were processed

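Raw gene counts were deposited by the authors, 1 file for each library, under Ensembl identifiers with symbols. The submitters' processing notes name Trimmomatic 0.39, STAR 2.7.9a, RSEM 1.3.3, DESeq2 1.28.1 and GRCh38, with no role or order. Which tool gave the counts, any rounding, the annotation and strand use are not given in the sources used here, so the division of reads between overlapping genes depends on a step that is not known.

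Counts were analysed in R 4.3.3 with edgeR 4.0.16. Genes were kept by filterByExpr (minimum count 10, minimum total 15), which removed 7207, and library sizes were scaled by TMM. CPM are counts over scaled library size. One mean per group was fitted over all 12 libraries (8 residual degrees of freedom, common biological variation 3.06%) and 8 comparisons were tested with glmQLFit (robust) and glmQLFTest. Calls needed an adjusted p (Benjamini-Hochberg, over all genes tested) under 0.05. The script was checked on simulated data. The 7 alternative fits, with DESeq2 1.42.0 among them, and 12 fits that each left out 1 library are described in the closing section. No replicate pair was a duplicate (chi-square per degree of freedom 1.44 to 4.45).

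The 10 genes and the gene lists were chosen with earlier results of these data known, so their counts are descriptions beside the share of all genes called. Named list genes were the 3 largest called changes in each direction with a mean of at least 1 CPM, of which 1 is not reported here. KLF4 and DUSP1 were given with library values, and MYC, ATF3, ETV4, ETV5, JUND and SRF were named, after their values were seen. The closest genes were the 2 with the highest Pearson correlation of log2 CPM (prior count 2) and a mean of at least 5 CPM.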

Additional observations from a re-analysis of the deposited data

How the results depend on the processing

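JUN, JUNB, DUSP4 and SPRY2 stayed called in the drug comparisons under upper-quartile and RLE scaling, no filter, DESeq2, the replicate block and in all 12 fits that left out 1 library, as they did with only the compared groups where that could be fitted. The exceptions were the test against a change of 1.2-fold, which among the 10 genes kept JUN alone (1 called in each drug comparison), and JUNB against control with HOOK2 summed, an alternative chosen after seeing the data. That 1.2-fold test called 564 genes for bezafibrate against control, 563 in ascites, 574 for both against control and 747 on average, and 1 in each of the 3 ascites comparisons. DUSP6 lost its average drug call under upper-quartile scaling (adjusted p 0.108), no filter (0.0542), DESeq2 (0.0509) and in 5 of the fits that left out 1 library, namely control 1 or 3, ascites 3, bezafibrate 1 or combination 2. SPRY4 in ascites was called with upper-quartile scaling (adjusted p 0.0386). SPRY4 for both against control was not called without control replicate 2 (adjusted p 0.103). FOSL1 was called for both against control without combination replicate 3 (adjusted p 0.0110) and lower with bezafibrate in ascites without combination replicate 2 (adjusted p 0.0481). The causes were not tested.

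Counts of calls with ascites moved most. With no filter 59 genes were called for ascites against control (1 of the 10, FOSL1), 52 in bezafibrate, 113 on average (1 of the 10) and 36 for the interaction. With only the compared groups ascites called 33 genes (1 of the 10), and 7 in bezafibrate. Leaving out 1 library gave 3 to 24 genes for ascites against control (lowest without control replicate 3), 9 to 28 in bezafibrate (lowest without bezafibrate replicate 2), 0 to 3 for the interaction and 21 to 118 on average (lowest without ascites replicate 1), with 0 to 1 of the 10 called. The highest of these counts, other than that of the interaction, came without combination replicate 3; the interaction had its 3 calls without combination replicate 1. DESeq2 called 1 gene for the interaction. The replicate block called 1 there and changed no call among the 10 genes. Replicate numbers did not pair the libraries, with correlations of same-numbered deviations from -0.228 to 0.143, and not every library correlated best with its own number.

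Upper-quartile scaling moved the share of higher genes among those called from 53.2% to 43.3% for the average drug effect, from 58.9% to 49.3% in ascites, from 57.2% to 49.0% against control and from 56.3% to 47.3% for both against control. The median of all genes moved by less than 0.02 (log2).

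Log2 changes that were not called changed sign when 1 library was left out. For ascites against control the ranges were -0.0014 to 0.103 for JUN and -0.200 to 0.039 for EGR1. For bezafibrate against control they were -0.175 to 0.064 for FOS and -0.052 to 0.012 for FOSL1. For ascites in bezafibrate they were -0.055 to 0.182 for FOS, -0.280 to 0.019 for EGR1, -0.031 to 0.020 for DUSP4, -0.012 to 0.057 for SPRY2 and -0.030 to 0.024 for SPRY4. For both against control they were -0.039 to 0.064 for FOS (-0.011 with upper-quartile scaling) and -0.073 to 0.027 for DUSP5. For the interaction they were -0.237 to 0.043 for FOS, -0.117 to 0.0045 for FOSL1, -0.0057 to 0.111 for JUN, -0.022 to 0.115 for JUNB, -0.212 to 0.089 for EGR1 and -0.013 to 0.022 for DUSP6. For the average ascites effect they were -0.00071 to 0.024 for DUSP4 and -0.025 to 0.0097 for SPRY2. With 26 to 39 counts per library, depth limits the precision of FOS.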
